A study of Mus musculus with 2 samples.

Results

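Isolated Zfp217 peaks were those on chromosomes 1 to 19 whose gap to the previous and to the next peak was more than 100 kb. A gap was measured from the end of a peak to the start of the next. Of 18003 peaks with a neighbour on both sides, 2144 (11.9%) met this rule, and the other 15859 served for comparison. The first and last peak of each of the 19 chromosomes, 38 in all, were left out of both groups, and the whole list held 18737 peaks. The isolated peaks were selected on their gaps, so gaps, counts and positions are given as a description. The widths, which the rule did not use, come from the same peaks of the same library.

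Zfp217 is a zinc finger protein that binds DNA and is known as a component of corepressor complexes, which silence genes through enzymes that remove activating marks from histones. The study's title places it in the context of m6A, a methyl mark on adenosines of RNA. In chromatin immunoprecipitation followed by sequencing (ChIP-seq), DNA bound by a protein is pulled down with an antibody and sequenced, and a peak is a stretch where reads pile up above background. The width of a peak depends on how the reads spread and on where the peak caller sets the edges, so it is not a measure of binding strength by itself.

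The sample was CCE, a mouse embryonic stem cell line, grown without feeder cells on gelatin in medium with serum and leukemia inhibitory factor and not treated. The series has 1 library from an immunoprecipitation with 10 µg of a Zfp217 antibody and 1 input library from the same line. The authors deposited 1 list of peak positions on the mouse build mm9, and no value in it could be assigned to the input. The list has no score, height or read count, so the depth is unknown. With 1 immunoprecipitated library there is no replicate error, and no test was made. Intervals are 95% intervals that take peaks as independent. Those of shares, ratios of shares and numbers per Mb cover counting error only. Those of medians and their differences reflect only the spread of values among peaks. Overlap of intervals is given as a description and does not show that the values are equal.

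Isolated peaks were narrower than the others. Their median width was 288 bp (95% order statistics interval 278 to 297), and that of the other peaks was 327 bp (323 to 330). The difference of the medians was -39 bp (-49.4 to -29.2). The middle 50% of isolated peaks lay between 197 and 438 bp, and that of the other peaks between 234 and 474 bp. The groups overlapped over most of their range. Other peaks with a neighbour within 1 kb had a median of 294 bp (290 to 298), and this interval overlaps that of the isolated peaks. Isolated peaks with the nearest peak at 100 to 250 kb had 316.5 bp (302 to 329), which overlaps the interval of the other peaks. Widths of 150 to 199 bp made up 25.8% of isolated peaks and 15.9% of the others. From 250 bp upward each 50 bp class held a smaller share of the isolated peaks.

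**Figure D1:**
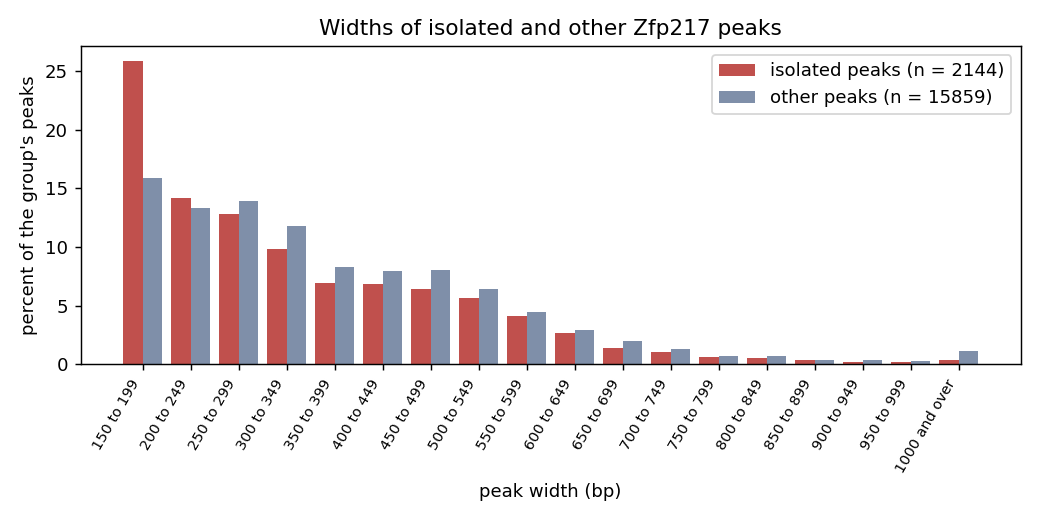
Widths in classes of 50 bp (horizontal axis) as the percent of each group's peaks (vertical axis), for 2144 isolated peaks and 15859 other peaks. The class of 150 to 199 bp holds 25.8% of isolated and 15.9% of other peaks, and the bars of the isolated peaks are lower from 250 bp upward.

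The smallest width in the list was 157 bp, and 150 isolated peaks had exactly this width. That was 7.0% of them (exact Clopper-Pearson interval 5.95 to 8.16%), against 481 of the other peaks, or 3.03% (2.77 to 3.31%). Over all classified peaks the share was 3.50%. The share was 2.31 times as high among isolated peaks (95% interval of the ratio 1.93 to 2.76). The next 10 widths, 158 to 167 bp, held on average 10.8 isolated peaks each, so the smallest width stood out 13.9 times above them. Among the other peaks the same factor was 9.08. Seen from the width, 23.8% of the peaks at 157 bp were isolated (20.5 to 27.3%), against 11.9% of all classified peaks. In turn, 7.0% of the isolated peaks lay at 157 bp. Of the peaks of 158 to 200 bp 16.5% were isolated. The share was 11.6% at 201 to 300 bp and 10.2% at 301 to 400 bp. Between 301 and 1000 bp the share stayed between 9.24 and 10.7% in the classes used.

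Few isolated peaks were very wide. In all, 8 isolated peaks were wider than 1 kb, or 0.373% (0.161 to 0.734%), against 185 of the others, or 1.17% (1.01 to 1.35%). Over all classified peaks the share was 1.07%. The ratio of the shares was 0.320 (95% interval 0.158 to 0.648). It was 0.605 (0.280 to 1.31) against the peaks with exactly 1 gap over 100 kb and 0.511 (0.243 to 1.07) against those with both gaps over 10 kb, and both of these intervals include 1. After merging of peaks at most 1000 bp apart, 5.41% (4.56 to 6.37%) of isolated regions and 7.64% (7.18 to 8.11%) of the others were wider than 1 kb. Of the 193 peaks wider than 1 kb, 4.15% were isolated (1.81 to 8.004%), against 11.9% of all classified peaks. Widths of 700 to 1000 bp were found in 62 isolated peaks, 2.89% (2.22 to 3.69%), and in 3.83% of the others (3.54 to 4.14%), whereas the share over all classified peaks was 3.72%. The intervals of this last pair overlapped, and no interval of their ratio was computed. The widest isolated peak ranked only at place 62 in width among all classified peaks.

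That widest isolated peak lay on chromosome 12 from 119539686 to 119541091 and was 1406 bp wide. It stood 157 kb from the peak before it and 1365 kb from the peak after it. Next came a peak of 1167 bp on chromosome 17 from 17761242 to 17762408, and 1 of 1117 bp on chromosome 1 from 66863333 to 66864449. Both had their nearest peak within 116 kb. Chromosome 5 held a peak of 1103 bp from 107124852 to 107125954, with 121 kb to its nearest neighbour. The fifth was on chromosome 9 from 94438292 to 94439344, 1053 bp wide. It was far from others on both sides, with gaps of 626 and 753 kb. Chromosome 11 followed with 1031 bp from 68504774, chromosome 17 with 1009 bp from 65962586 and chromosome 15 with 1003 bp from 59479225. The ninth, 992 bp on chromosome 8 from 55614728 to 55615719, had a gap of 3414 kb after it. The tenth, 986 bp on chromosome 9 from 25059438, lay close to the limit of the rule, with a nearest gap of 103 kb. Thus 3 of the 10 widest had their nearest peak more than 250 kb away, and among all isolated peaks this share was 36.1%.

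Within the isolated peaks, width fell as the distance to the nearest peak grew. The 1370 peaks with their nearest neighbour at 100 to 250 kb had a median width of 316.5 bp (302 to 329). At 250 to 500 kb the median was 266 bp (252 to 277, 512 peaks). At 500 kb to 1 Mb it was 236 bp (215 to 263, 207 peaks), and beyond 1 Mb it was 224 bp (198 to 268, 55 peaks). The intervals of the first 2 classes did not overlap, and those of the last 3 did. The share at 157 bp went the other way, from 5.18% (4.07 to 6.49%) in the nearest class to 9.18% (6.82 to 12.0%), 12.1% (7.97 to 17.3%) and 12.7% (5.27 to 24.5%). Without the peaks at 157 bp the medians in these 4 classes were 328, 277, 260 and 240.5 bp, so the order of the medians did not rest on the smallest width alone.

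Among the other peaks, the relation ran in the opposite direction. Peaks with a neighbour within 1 kb had a median width of 294 bp (290 to 298), and it was 325 bp (318 to 332) at 1 to 10 kb. It was 367.5 bp (359 to 377) at 10 to 50 kb and 373 bp (358 to 388) at 50 to 100 kb. The intervals of the last 2 classes overlapped, and after merging within 1000 bp both had a median of 423 bp. In these 4 classes the share at 157 bp stayed between 2.74 and 3.66%.

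**Figure D2:**
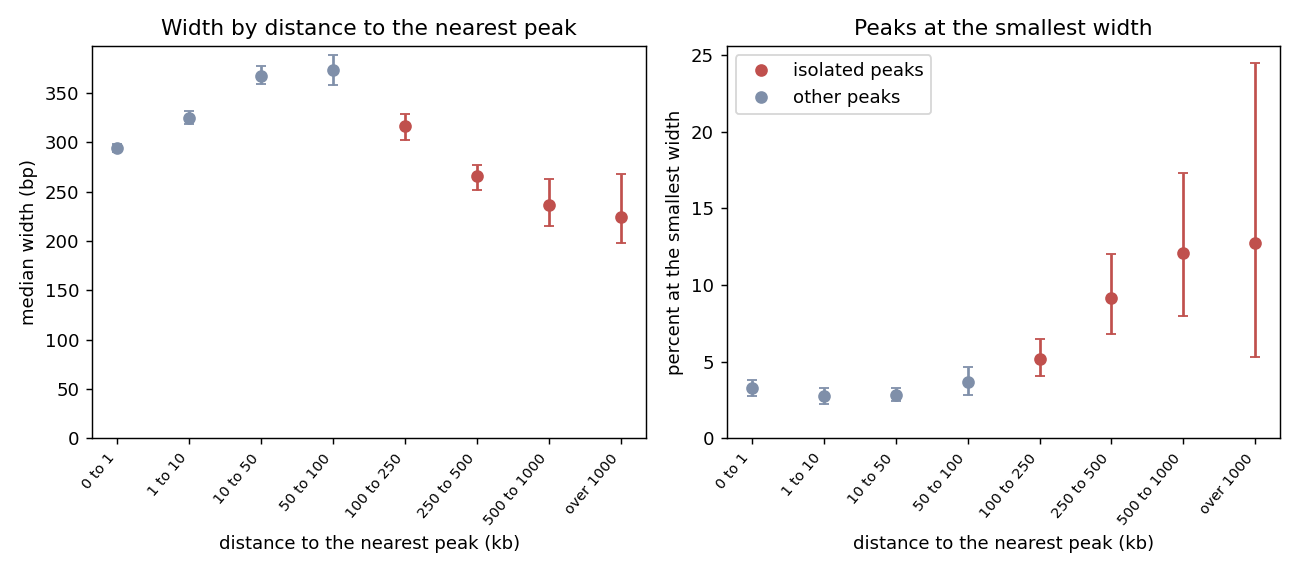
Median width in bp (left) and percent of peaks at the smallest width, 157 bp (right), in classes of the distance to the nearest peak in kb. Points are medians or shares, bars their 95% intervals, with isolated peaks in red. The medians at 10 to 50 and 50 to 100 kb are 367.5 and 373 bp, the median beyond 1 Mb is 224 bp, and the share at 157 bp is highest among the isolated classes.

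The comparison with the other peaks depended on where the limit lay and on which peaks stood on the other side. With gaps over 50 kb as the rule the difference of the medians was -2 bp (-10.5 to 7.49), and with gaps over 500 kb it was -91 bp (-109 to -69.8). Against the 7117 other peaks with both gaps over 10 kb, which leaves out close pairs, it was -81 bp (-93.8 to -69.0). When only the wider 50% of peaks were kept, the gaps were measured anew on the shortened list. This gave a different isolated set of 1943 peaks, with a difference of -8 bp (-16.9 to 3.70). The ratio of the shares at 157 bp was 1.66 (1.36 to 2.02) against the 5348 peaks with exactly 1 gap over 100 kb. In those peaks 4.23% (3.70 to 4.80%) were at 157 bp, which lay between the isolated peaks and the 2.43% (2.14 to 2.74%) of peaks with no long gap.

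Close to the limit the intervals on either side overlapped. The 219 isolated peaks with a nearest gap of at most 110 kb had a median width of 326 bp (298 to 391), and the 212 peaks with a nearest gap of 90 to 100 kb had 350.5 bp (320 to 410). At 157 bp were 13 of the former, 5.94% (3.20 to 9.94%), and 6 of the latter, 2.83% (1.05 to 6.06%). Widths of 700 to 1000 bp made up 3.20% (1.29 to 6.47%) and 6.60% (3.66 to 10.8%). The isolated peak nearest to the limit lay on chromosome 16 from 92158818 to 92159087, 270 bp wide, with a gap of 100028 bp. The first peak short of it lay on chromosome 2 from 109857747 to 109858169, 423 bp wide, with a gap of 99768 bp.

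The farther of the gaps moved with width as well. Among isolated peaks whose nearest peak was 100 to 250 kb away, the median was 330 bp (316 to 344, 930 peaks) where the farther gap was at most 500 kb. It was 275 bp (264 to 313, 277 peaks) at 500 kb to 1 Mb and 280 bp (245 to 325, 163 peaks) beyond 1 Mb. Among those with the nearest peak over 250 kb away, the medians in the same classes were 302 bp (278 to 349), 243 bp (225 to 266) and 237 bp (220 to 260). In each class of the farther gap the median was lower where the nearer gap was over 250 kb, with overlapping intervals in all 3 classes.

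Isolated peaks with few peaks in their wider surroundings were narrower than those with many. Isolated peaks with at most 2 other peaks starting within 1 Mb on either side had a median width of 241 bp (220 to 268, 255 peaks). With 3 to 5 it was 263.5 bp (242 to 277) and with 6 to 9 it was 278 bp (264 to 295). With 10 to 19 it was 332 bp (309 to 348, 688 peaks), and with 20 or more it was 316 bp (298 to 345, 342 peaks), so there was no further rise in the fullest class. This number and the nearest gap go together, since the median nearest gap fell from 632 kb in the emptiest class to 134 kb in the fullest. At a nearest gap of 100 to 150 kb, the median was 285 bp (254 to 309, 90 peaks) with at most 5 peaks around and 350 bp (326 to 375, 539 peaks) with 10 or more. At a nearest gap over 250 kb the values were 241.5 bp (227 to 264, 422 peaks) and 276.5 bp (250 to 325, 168 peaks). The intervals lay apart in the first case and overlapped in the second.

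By chromosome, only the order of medians with a split at 250 kb was compared, without intervals. Some groups were small, such as the 20 isolated peaks over 250 kb from others on chromosome 19. On all 19, isolated peaks more than 250 kb from the nearest peak had a lower median width than those at 100 to 250 kb, and a lower one than the other peaks. The difference was small on chromosome 13, with 303 against 304 bp, and large on chromosome 3, with 203.5 against 329 bp. Over the 19 chromosomes the medians of the more distant peaks ran from 203.5 to 303 bp, and those at 100 to 250 kb from 282 to 408.5 bp. The latter were below the median of the other peaks on 12 chromosomes, equal on 1 and above it on 6.

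**Figure D3:**
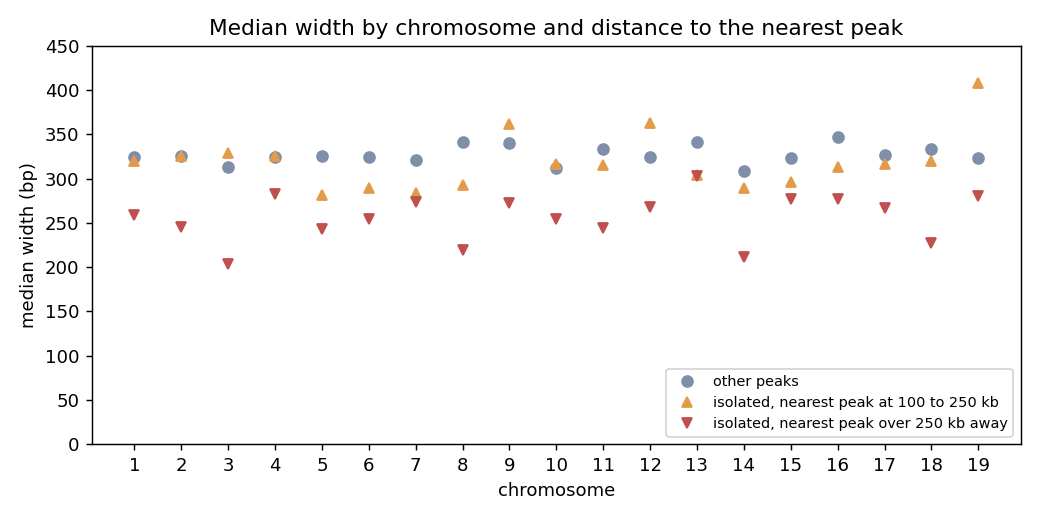
Median width in bp on chromosomes 1 to 19 for other peaks, isolated peaks with the nearest peak at 100 to 250 kb, and isolated peaks with the nearest peak over 250 kb away. The lowest point of all 19 chromosomes is that of the most distant peaks, between 203.5 and 303 bp.

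Taking all isolated peaks of a chromosome together, their median was lower than that of the other peaks on 18 of 19 chromosomes. The exception was chromosome 19, with 327.5 against 323 bp and 48 isolated peaks. The intervals of the 2 medians lay apart on 4 chromosomes. The lowest median of isolated peaks was 244 bp, on chromosome 14, where 14 of 101 were at 157 bp. The highest was 334 bp, on chromosome 9, where 3 of 114 were. The share at 157 bp was higher among isolated than among other peaks on 17 chromosomes, all but 16 and 19, which each held 1 isolated peak of that width. With each chromosome weighted equally, by the median over the 19, the difference of the medians was -38 bp and the ratio of the shares 2.12.

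The number of isolated peaks per Mb varied less between chromosomes than that of the other peaks. It ran from 0.731 on chromosome 8 (95% Poisson interval 0.592 to 0.893, 96 peaks) to 1.06 on chromosome 12 (0.883 to 1.26, 128 peaks), a ratio of 1.45. The other peaks ran from 3.85 per Mb on chromosome 1 to 11.5 on chromosome 11, a ratio of 2.99. Lengths were taken up to the end of the last peak. The share of isolated peaks therefore differed with the total. It was highest on chromosome 1, with 188 of 946 peaks or 19.9% (17.4 to 22.6%), and lowest on chromosome 11, with 96 of 1498 or 6.41% (5.22 to 7.77%). The rule itself links share and density, since closely packed peaks leave fewer long gaps.

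**Figure D4:**
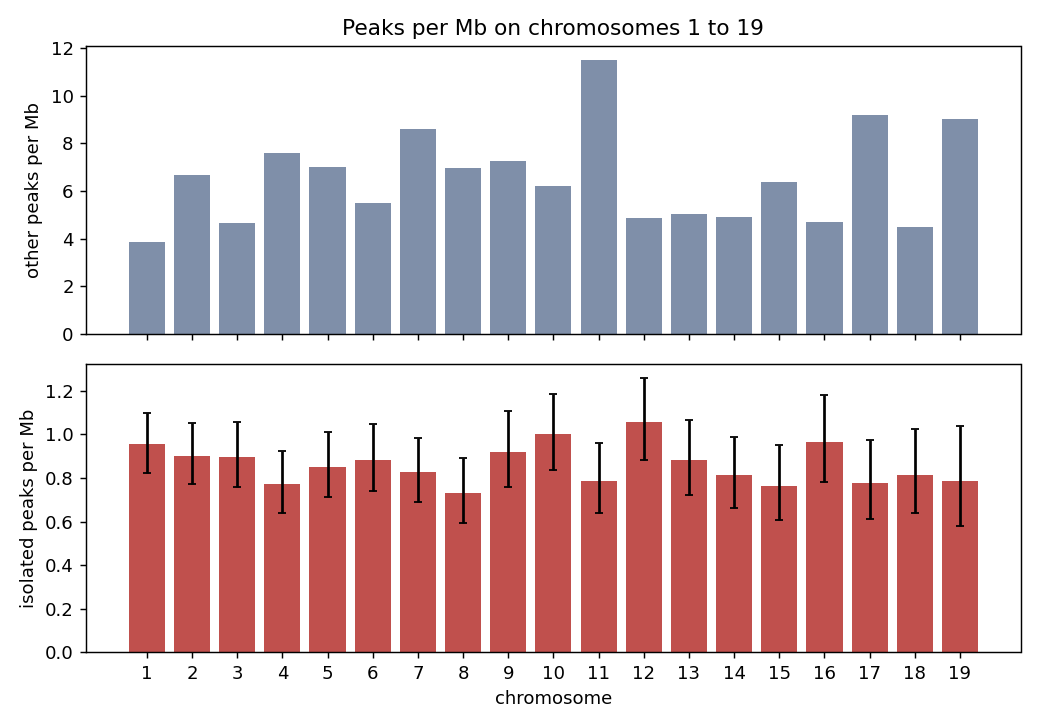
Other peaks per Mb (top) and isolated peaks per Mb (bottom, with 95% Poisson intervals) on chromosomes 1 to 19, on separate axes from 0. The other peaks range from 3.85 to 11.5 per Mb and the isolated peaks from 0.731 to 1.06 per Mb.

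Across the 19 chromosomes the share of isolated peaks was lower where protein-coding genes were denser (Pearson's r = -0.84, Spearman's rho = -0.89). The number of isolated peaks per Mb had r = -0.43 and rho = -0.39 with gene density, and the other peaks per Mb had r = 0.93 and rho = 0.94. These are descriptions over chromosomes of 1 library that share the list and the lengths. Because the rule lowers the share where peaks are dense, the share's relation with gene density is not separate from that of the other peaks. Chromosome 12, first in isolated peaks per Mb, carried 5.62 genes per Mb, among the lowest, and chromosome 7 carried the most with 13.3. Peaks were not assigned to genes.

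Gaps next to an isolated peak made up most of the peak-free sequence, in part because the rule asks for more than 100 kb on both sides. The gaps between neighbouring peaks added up to 2401 Mb, and the 4824 gaps over 100 kb made up 85.9% of this length. The 3227 gaps next to an isolated peak made up 1534 Mb, or 63.9%, and 2160 peaks that were not isolated bordered these gaps as well. Another 1597 gaps over 100 kb, with 528 Mb, separated groups of peaks with no isolated peak beside them. The median nearest gap of an isolated peak was 188 kb, with a middle 50% from 131 to 323 kb. The median farther gap was 496 kb, with a middle 50% from 264 to 919 kb. At the median, the farther gap was 1.96 times as long as the nearer.

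The most isolated peak lay on chromosome 14 from 110502073 to 110502280, with no peak for 3.03 Mb before it and 2.26 Mb after it. It was 208 bp wide. On chromosome 6 a peak of 276 bp from 62965437 to 62965712 had gaps of 2.70 and 2.01 Mb. On chromosome 18 a peak at the smallest width, from 17227198 to 17227354, had gaps of 2.00 and 2.49 Mb. Chromosome 3 held a peak of 175 bp from 48125259 to 48125433 with 1.87 Mb to the nearest, and chromosome 1 a peak of 268 bp from 103199181 to 103199448 with 1.73 Mb. All 5 were narrower than the median isolated peak. All 19 chromosomes held at least 1 of the 55 peaks with both gaps over 1 Mb, and the widest of these was 578 bp. None of the 55 reached 700 bp, for which the exact upper limit is 6.49%. This depended on how close peaks were split. After merging within 1000 bp, 4 of 61 regions this far from others (6.56%, 1.82 to 15.9%) were wider than 1 kb, 1 more was 700 to 1000 bp, and the widest was 5132 bp.

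Peaks at the smallest width stood farther out than the wider isolated peaks. The 150 peaks at 157 bp had a median nearest gap of 265 kb (213 to 323), and the 1994 wider ones 186 kb (178 to 191). The farther gaps had medians of 627 kb (528 to 780) and 485 kb (455 to 512). Both pairs of intervals lay apart. For the nearest gap this is the relation already given as the share at 157 bp by distance, seen from the gaps. The peaks at 157 bp were found on all 19 chromosomes.

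Many isolated peaks followed one another. Neighbouring isolated peaks share a gap, so runs are set in part by the rule. Of all 18022 gaps between neighbours, 4824 were over 100 kb. Of the 2144, 562 (26.2%) stood alone between peaks that were not isolated, and the others lay in runs of at least 2 isolated peaks in a row. Runs of 4 or more numbered 123 and held 660 peaks, or 30.8%. The median width was 309 bp (289 to 331) for those alone, 286 bp (274 to 302) in runs of 2 or 3, and 274 bp (265 to 289) in the longer runs. The share at 157 bp was 5.87% (4.08 to 8.15%), 5.75% (4.34 to 7.45%) and 9.70% (7.55 to 12.2%) in the same order. Peaks next to an isolated peak that were not isolated themselves had a median of 311 bp (302 to 320, 2160 peaks). Of these, 5.14% (4.25 to 6.16%) were at 157 bp. They belong to the 5348 peaks with exactly 1 gap over 100 kb, which had a median of 321 bp (316 to 327). In that larger group 4.23% (3.70 to 4.80%) were at 157 bp, and both pairs of intervals overlapped. The median of all other peaks was 327 bp.

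The longest run held 16 isolated peaks on chromosome 2, from 60719386 to 69044354, over 8.32 Mb. Its gaps ranged widely, from 117 kb before the peak at 63562403 to 1309 kb after the peak at 66094555. The widths in it ran from 157 bp, found in 2 peaks, to 569 bp in the peak from 61549421 to 61549989. Its median was 273.5 bp. The next run held 11 peaks on chromosome 16 from 45158379 to 48284001, over 3.13 Mb, with a median of 265 bp.

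Along the chromosomes, isolated peaks were spread over the whole span from the first to the last peak. In mouse, the centromere lies at the start of the numbering. Divided into 10 equal parts, each part of the span held between 7.88 and 11.6% of the isolated peaks. The other peaks were unevenly placed, with 6.93% (6.54 to 7.34%) in the third part and 13.6% (13.1 to 14.1%) in the last. Of all peaks in the third part 17.4% (15.4 to 19.5%) were isolated, and in the last 7.27% (6.25 to 8.40%). The median position was 48.0% of the span (46.0 to 50.4) for isolated and 57.2% (56.5 to 58.0) for other peaks. The median width of isolated peaks was 273 bp (256 to 302) in the first part and 303 bp (276 to 347) in the last, with overlapping intervals.

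**Figure D5:**
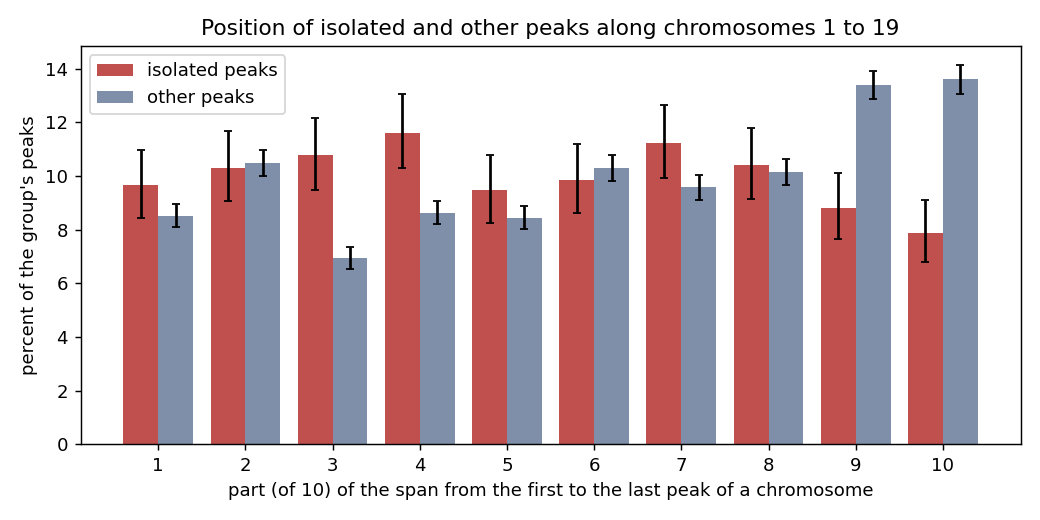
Percent of isolated and of other peaks (vertical axis, with 95% intervals) in each of 10 equal parts of the span from the first to the last peak of a chromosome (horizontal axis, chromosomes 1 to 19 together). Isolated peaks take 7.88 to 11.6% in each part, and other peaks reach 13.6% in the last.

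Isolation did not always mean an empty region. Of 2134 bins of 1 Mb that held any peak, 1412 held an isolated one. In 275 cases it was the only peak of its bin, and these peaks had a median width of 237 bp (220 to 262) with 11.6% (8.10 to 16.0%) at 157 bp. In bins of 2 to 4 peaks the median was 267 bp (255 to 275, 772 peaks), and in bins of 5 to 9 it was 331 bp (307 to 352, 677 peaks). In bins of 10 to 29 it was no higher, at 328 bp (303 to 354, 399 peaks). At the other end, 21 isolated peaks lay in bins with at least 30 peaks. Their widths ran from 163 to 757 bp with a median of 373 bp (303 to 426), an interval that overlaps those of the previous 2 classes, and 0 of 21 were at 157 bp, for which the exact upper limit is 16.1%. The fullest such bin, with 73 peaks, was on chromosome 8. Its isolated peak, from 73550226 to 73550705, was 480 bp wide with gaps of 120 and 245 kb.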

How the data were processed

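Peak positions (chromosome, start, end and name, in bp) of the Zfp217 ChIP-seq library were taken from the list the authors deposited. Per the labels' protocols, chromatin was fixed with 1% formaldehyde for 10 min, and size-selected fragments (200 to 300 bp) went through 16 PCR cycles. Of CASAVA 1.4, Bowtie2, MACS2 and mm9, which the submitters' processing notes name, roles and settings are not stated in the sources used here. The same holds for the peak threshold and the use of the input. The numbers in the peak names run without a gap, and no peaks overlap. Starts, counted from 0 in the list, are printed counted from 1.

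Medians carry order statistics intervals, differences of medians combine both, shares carry exact Clopper-Pearson intervals, and ratios of shares a log interval. No p-value was computed. The classification was tested on simulated data. So was the interval of a difference, but only with independent, smoothly spread values in large groups. A heap at the smallest width and small groups were not simulated for that interval. Alternatives were other limits (50, 200 and 500 kb), merging within 1000 bp, midpoints, removal of the narrowest peaks, the wider 50%, equal weight for chromosomes, other comparison groups and adding chromosome X. The isolated peaks, classes and alternatives were chosen with earlier results of these data known. Named were the 10 widest, the 5 with the longest nearest gap, those beside the limit, the longest run and the chromosomes at the extremes. The second run, the peak in the fullest bin and the other named chromosomes were chosen after their values were seen.

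Genes per chromosome came from a RefSeq table of GRCm38.p6, used only as counts. No genome of mm9 was used, so no sequence, motif or gene position is given. Scripts ran in Python 3.11.15 with scipy 1.17.1, numpy 2.4.6, matplotlib 3.10.9 and pandas 2.3.3.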

Additional observations from a re-analysis of the deposited data

Results flagged for a closer look

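Chromosome X lay outside the rule and is listed here because the same gaps found peaks there. Of 596 peaks on X with a neighbour on both sides, 138 were isolated, or 23.2% (exact Clopper-Pearson interval 19.8 to 26.8%). Their median width was 258 bp (245 to 278), and that of the other peaks on X was 280.5 bp (261 to 296), with overlapping intervals. At 157 bp were 7 of the 138 isolated peaks, 5.07% (2.06 to 10.2%), and 34 of the others, 7.42%, so the share was not higher among isolated peaks there. None of the 138 was wider than 1 kb, with an exact upper limit of 2.63%. A difference between X and the autosomes was not tested.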

How the results depend on the processing

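Of 53 alternative values, 25 stayed within the limits set for them and 28 moved. Only differences of medians and ratios of shares have a direction that could reverse, and none of these reversed. Counts, medians, single shares and the median position have no such direction, so they could only stay or move. The difference of the medians was below 0 in all 11 of its alternatives, but its intervals at 50 kb and for the wider 50% of peaks included 0. Gaps between midpoints gave -39 bp again. With limits of 50, 200 and 500 kb, the number of isolated peaks went from 2144 to 3865, 994 and 262, the median width from 288 to 321, 260 and 233 bp, and the difference from -39 to -2, -66 and -91 bp. The share at 157 bp went from 7.0 to 5.51, 9.15 and 12.2%, and the ratio of shares from 2.31 to 1.86, 2.88 and 3.62. The isolated share went to 32.9 and 8.56% on chromosome 1 and to 13.7 and 2.67% on chromosome 11 with 50 and 200 kb, and chromosome 17 was lowest at 50 kb with 13.6%. Merging within 1000 bp joined close peaks into wider regions and gave a median of 327.5 bp, a difference of -74.5 bp and 5.41% wider than 1 kb. It also took the step in median width from 100 to 250 kb to over 250 kb, an alternative added after seeing the data, from -61.5 to -85.5 bp. Leaving out the peaks at 157 bp gave 2097 isolated peaks with a median of 302 bp. Keeping only the wider 50% of peaks gave 1943, with a median of 462 bp and a difference of -8 bp (-16.9 to 3.70). In both cases the gaps were measured anew on the shortened list, so the isolated set changed. Against peaks with exactly 1 long gap the ratio of shares was 1.66, and against peaks with both gaps over 10 kb the difference was -81 bp. The share of isolated peaks at gene starts was not run, since it needs gene positions on mm9. No paired analysis was possible because there is 1 library of each kind. Without depth or scores, a peak missing from a gap cannot be told from too few reads, and stretches without sequence in the assembly were not masked.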
